A study of Homo sapiens with 4 samples.

Results

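Catecholaminergic neurons were examined as the nuclei that the deposited annotation places in the class enteric neuron and gives the catecholaminergic identity. They numbered 1941 of 6557 enteric neurons and of 14812 annotated nuclei. The comparison group was the 4380 enteric neurons whose entry for this identity is "Other", and the remaining 236 enteric neurons had no identity value and were left out. The nuclei came from stage 1 enteric ganglioids, cultures grown in 3D as free clusters of neurons with progenitor and mesenchymal cells and derived from the human embryonic stem cell line H9 through a neural crest stage. The study asked in these cultures which cells the kinase inhibitor PP121, an inhibitor of PDGF receptors among other kinases, shifts in number or state. There were 2 control samples and 2 samples given PP121 at 2 µM from day 15 to day 20, each a suspension of many ganglioids, with replicate numbers that the labels give as differentiation replicates and that the annotation dates to day 42 for replicate 1 and day 38 for replicate 2 in both groups. All 4 samples share the 1 cell line, so the spread between them is a spread between cultures and not between people.

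Catecholamine synthesis starts with tyrosine hydroxylase (TH), which turns tyrosine into L-DOPA. DOPA decarboxylase (DDC) then makes dopamine, dopamine beta-hydroxylase (DBH) makes noradrenaline and PNMT makes adrenaline, while the vesicular transporters SLC18A2 and SLC18A1 load amines into vesicles and the plasma membrane transporters SLC6A3 and SLC6A2 take dopamine and noradrenaline back up. In the gut wall, intrinsic dopaminergic neurons are a minor class and most noradrenaline arrives with sympathetic fibres from outside. TH is also made for a time by progenitors on their way to other enteric neurons.

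The identity was set by the authors from imputed expression. The study gives its rule in full for nitrergic neurons only, so the genes behind the catecholaminergic identity are not known here. Every difference between the identity and the other neurons is therefore given as a description with its size. Leading genes also have their standard error (SE) or the number of samples that show the difference. Tests were read as evidence only for differences between treatments and for groupings by TH UMIs. Where an adjusted p is printed for a contrast of identities, it marks only which side of the threshold a gene lies on. A further deposited column for a dopaminergic identity held the same values, with 0 nuclei that differed. Control replicates 1 and 2 and PP121 replicates 1 and 2, the order of all values by sample below, held 415, 464, 661 and 401 catecholaminergic nuclei with a median of 7749, 7667, 7129 and 7978 unique molecular identifiers (UMIs), against 7206, 7834, 6799 and 7714 in the other neurons. For each sample the UMIs of all nuclei in a group were added up, giving 3404949 to 5262717 UMIs for catecholaminergic neurons, and levels are these sums scaled to a total of 1000000 (CPM). Pairs of samples shared 4 to 15 cell barcodes among all deposited nuclei and 0 to 3 among neurons.

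Of 8 genes of catecholamine synthesis, storage or uptake, 2 held enough counts to be tested, TH and SLC18A2. Of these, only TH stood out in these neurons. TH, at chromosome 11, 2163929 to 2171815 in GRCh38, reached 26.7, 22.7, 21.5 and 21.5 CPM in catecholaminergic neurons and 5.65, 3.93, 3.25 and 5.15 CPM in the other neurons. The means were 23.1 ± 2.48 and 4.50 ± 1.10 CPM (SD, n = 4), and the sums rested on 91, 91, 113 and 75 against 87, 27, 31 and 23 UMIs. The 2 groups did not overlap, TH was 4.17 to 6.61 times higher within each sample, and the log2 fold change was 2.38 ± 0.16 (SE).

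SLC18A2 was not set apart from the other neurons, and the rest of the pathway gave too few UMIs to be tested. SLC18A2, the vesicular monoamine transporter, was at 12.0, 13.7, 12.5 and 11.8 CPM against 13.4, 12.7, 13.2 and 6.95 CPM in other neurons, higher in 2 of 4 samples with a log2 fold change of 0.10 ± 0.17. DDC gave 5, 12, 11 and 4 UMIs in all nuclei of the identity together, and DBH gave 1, 1, 4 and 1. The remaining steps were at or next to 0: PNMT gave 1, 1, 0 and 3 UMIs, SLC18A1 1, 0, 2 and 3, SLC6A3 7, 3, 1 and 3, and SLC6A2, the noradrenaline transporter, 0 in every sample. Of the marker genes TH, DBH and SLC18A2, only TH therefore set the annotated nuclei apart in the UMIs themselves, while DBH was too sparse to be tested. Among the genes tested, TH alone was set apart, and the label may itself have been set from TH. The 4 measured cofactor genes, among them GCH1, which makes the cofactor of TH, and the 3 genes of amine breakdown held no member past the threshold described below. That threshold was passed by 4.98% of all genes. Their median log2 fold changes were 0.25 and -0.06. The cofactor gene QDPR was higher in 4 of 4 samples (0.46 ± 0.14, adjusted p = 0.0825 in edgeR).

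**Figure D1:**
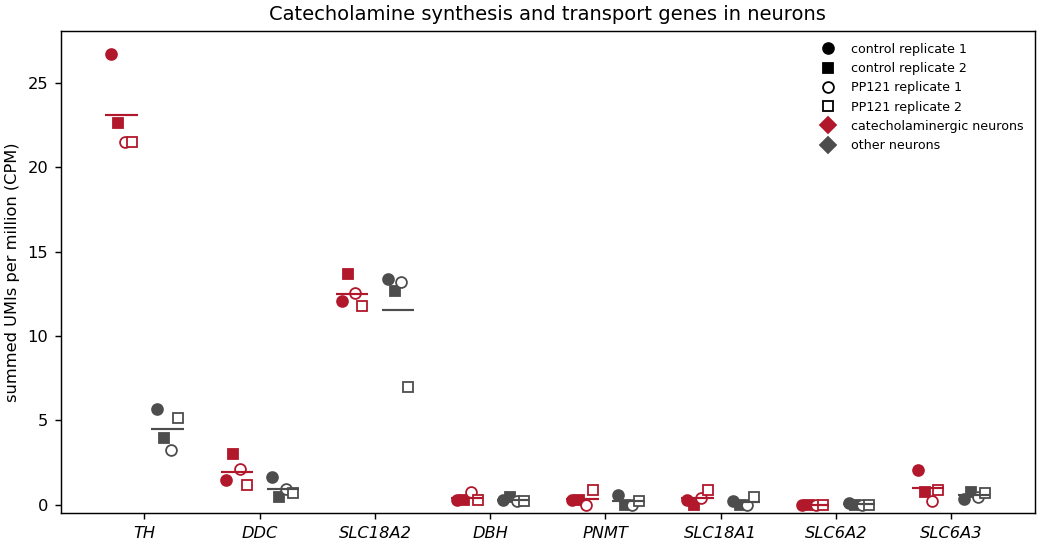
Levels of 8 catecholamine genes (x axis) as summed UMIs scaled to a total of 1000000 (CPM, y axis) in each of 4 samples, for catecholaminergic neurons (red) and other neurons (grey), with a line at each mean. TH lies at 21.5 to 26.7 CPM in catecholaminergic neurons against 3.25 to 5.65 CPM in the others, while SLC18A2 overlaps between the groups and the remaining genes lie near 0.

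Most nuclei of the identity held no TH UMI. A TH UMI was present in 19.3%, 17.0%, 13.9% and 15.5% of catecholaminergic nuclei and in 3.90%, 3.25%, 2.28% and 3.89% of the other neurons. To set these shares beside other cell classes, each nucleus was thinned to 2000 UMIs, which left out 4 catecholaminergic nuclei and 16 other neurons. At that depth 98 of 1937 catecholaminergic nuclei held a TH UMI (5.06%, exact 95% interval 4.13 to 6.13%), against 29 of 4364 other neurons (0.665%), 0.315% of progenitor 1, 0.318% of progenitor 2 and 1 of 898 mesenchymal nuclei (0.111%), a class that should lack the gene. Median depths before thinning were 7579 UMIs in catecholaminergic neurons, 7239 in other neurons, 5269 and 6491 in the progenitors and 7601 in mesenchymal nuclei. A DBH UMI was found in 1 of 1937 thinned catecholaminergic nuclei (0.0516%), beside 2 of 4364 other neurons (0.0458%) and 8 of 3776 nuclei of progenitor 2 (0.212%), and an SLC18A2 UMI in 2.89% of them against 2.57% of other neurons, 2.66% and 2.89% of progenitors and 1.78% of mesenchymal nuclei. The SLC6A2 count of 0 of 1937 allows up to 0.155% of nuclei with a UMI at this depth, which is no limit on nuclei that express the gene. These intervals and limits cover counting error only.

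Markers of neurons were high in these nuclei, and the summed markers of sympathetic and adrenal cells were not set apart. The summed level of 8 enteric neuron markers was 1106, 1028, 1152 and 1284 CPM in catecholaminergic neurons and 942, 904, 1054 and 1111 CPM in the other neurons. The 9 markers of chromaffin and sympathetic cells summed to 46.7, 34.8, 35.0 and 28.7 CPM against 34.1, 34.6, 31.5 and 33.6 CPM, so the groups overlapped. Single members differed in direction. CHGB (log2 fold change 0.48 ± 0.13) and CHGA (0.36 ± 0.19) were higher in 4 of 4 samples, and INSM1 (-0.36 ± 0.20) was lower in 3 of 4. In catecholaminergic neurons HAND2, a transcription factor of sympathetic and enteric neurons, gave 0 UMIs in all 4 samples. So did the midbrain floor plate factor FOXA2, and GATA3, which acts in the sympathoadrenal lineage, gave 0, 3, 1 and 0. Both HAND2 and FOXA2 had UMIs among the other neurons. The 5 cycling markers summed to 23.2, 16.2, 22.2 and 44.2 CPM against 34.7, 27.9, 34.6 and 63.0 CPM, lower in all 4 samples. The annotated cell cycle phase did not follow them. Nuclei in G2M made up 13.0%, 11.4%, 9.98% and 14.0% against 10.7%, 10.1%, 9.46% and 13.6%, higher in all 4 samples. Nuclei in S phase made up 32.0%, 37.9%, 25.1% and 19.2% against 36.0%, 37.4%, 25.4% and 24.5%, lower in 3 of 4. Mesenchymal markers summed to 17.6, 40.1, 9.31 and 50.2 CPM against 12.8, 48.5, 12.9 and 54.9 CPM. The part of these levels in the differences below was not tested.

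The catecholaminergic share of the enteric neurons with an identity value was 18.2%, 37.6%, 35.0% and 43.8%, with exact 95% intervals of 16.6 to 19.8%, 34.9 to 40.4%, 32.9 to 37.2% and 40.6 to 47.1%. PP121 samples averaged 39.4 ± 6.22% and control samples 27.9 ± 13.7% (SD, n = 2 each), a difference of 11.5 percentage points (exact permutation test, two-sided, p = 0.667, where 0.333 is the smallest p that 2 against 2 can give). The difference was 16.9 points in replicate 1 and 6.22 points in replicate 2, and it ran from 1.83 to 21.3 points when single samples were left out, with 1.83 points the value without control replicate 1. Whether imputation was run on control and PP121 nuclei together is not given in the sources used here, and that cannot be told apart from the treatment in this share. TH UMIs need no imputation. After thinning, a TH UMI was found in 2.14% and 2.33% of control neurons and 1.53% and 1.95% of PP121 neurons, a difference of -0.491 percentage points (exact permutation p = 0.333, the smallest possible). The sign of that difference was not stable, at 0.146 points without thinning.

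The catecholaminergic identity overlapped with the 5 other transmitter identities of the annotation, and 4 of these took a lower share of the catecholaminergic than of the other neurons in every sample. All these identities come from the same annotation, so the shares and their tests are given as a description of it. Nitrergic neurons, which make nitric oxide, were 13.5%, 17.7%, 11.3% and 5.74% of catecholaminergic nuclei and 21.0%, 19.2%, 23.1% and 13.2% of other neurons. The mean difference was -7.08 points for the nitrergic, -11.9 for the cholinergic, -11.7 for the serotonergic and -14.7 for the GABAergic identity, each lower in 4 of 4 samples (exact sign-flip test over samples, p = 0.125, the smallest that 4 samples allow, adjusted p = 0.156 over 5 identities). The cholinergic difference was uneven, from -17.8 points in control replicate 1 to -0.336 points in PP121 replicate 2. The glutamatergic identity was carried by 39.3%, 43.1%, 40.1% and 61.8% of catecholaminergic nuclei against 21.8%, 44.9%, 34.1% and 69.5%, higher in 2 of 4 samples (difference 3.50 points, exact sign-flip p = 0.75). No other identity at all was given to 25.3%, 29.5%, 24.5% and 23.2% of catecholaminergic nuclei, 497 in total. These nuclei were shallower, with medians of 4946 to 6103 UMIs.

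**Figure D2:**
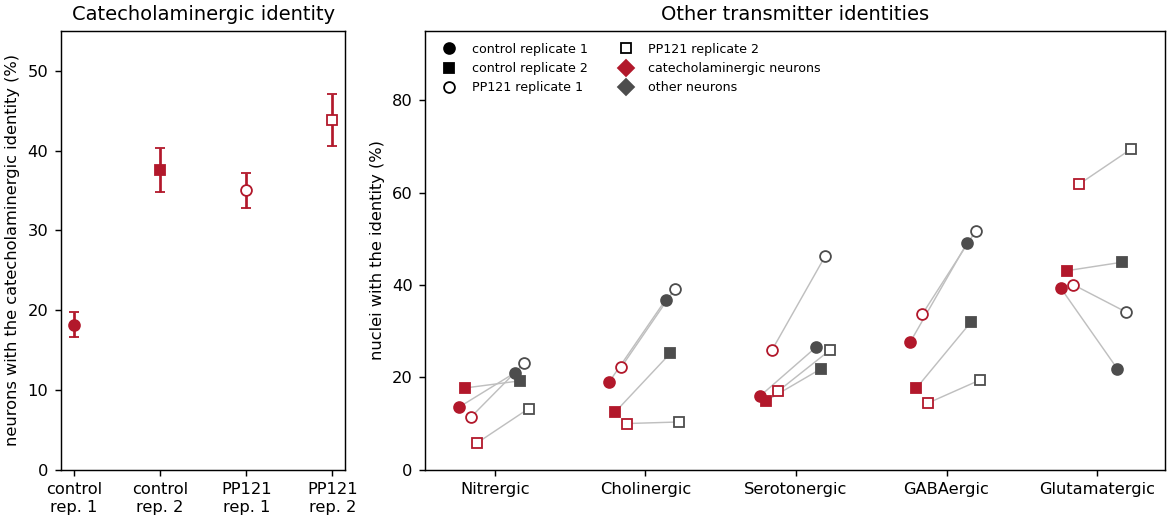
Left, the share of enteric neurons with the catecholaminergic identity (%, y axis) in each sample, with exact 95% binomial intervals, from 18.2% in control replicate 1 to 43.8% in PP121 replicate 2. Right, the share of catecholaminergic (red) and other (grey) neurons that carry each of 5 further transmitter identities, with 1 point a sample, lower in the catecholaminergic neurons of all 4 samples for every identity but the glutamatergic.

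Catecholaminergic nuclei were spread over the annotated neuron subtypes and dense in a few. The deposited tables name 8 subtypes, EN 1 to EN 8, in the control samples and 9, EN A to EN I, in the PP121 samples. Per the study's methods the lettered subtypes came from neurons of both treatments clustered together and the numbered ones from control neurons alone, so the names here do not match between treatments. In control samples the identity was most frequent in EN 4, with 47.5% and 56.8% of its nuclei in replicates 1 and 2, and in EN 8 of replicate 2, with 64.4% against 22.2% in replicate 1. It was rare in EN 6, with 3.17% and 7.10%. In PP121 samples EN H held 228 catecholaminergic nuclei of 302 in replicate 1 (75.5%) and 196 of 233 in replicate 2 (84.1%), which made up 34.5% and 48.9% of all catecholaminergic nuclei of those samples. EN F was low in both, at 3.70% and 11.5%.

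**Figure D3:**
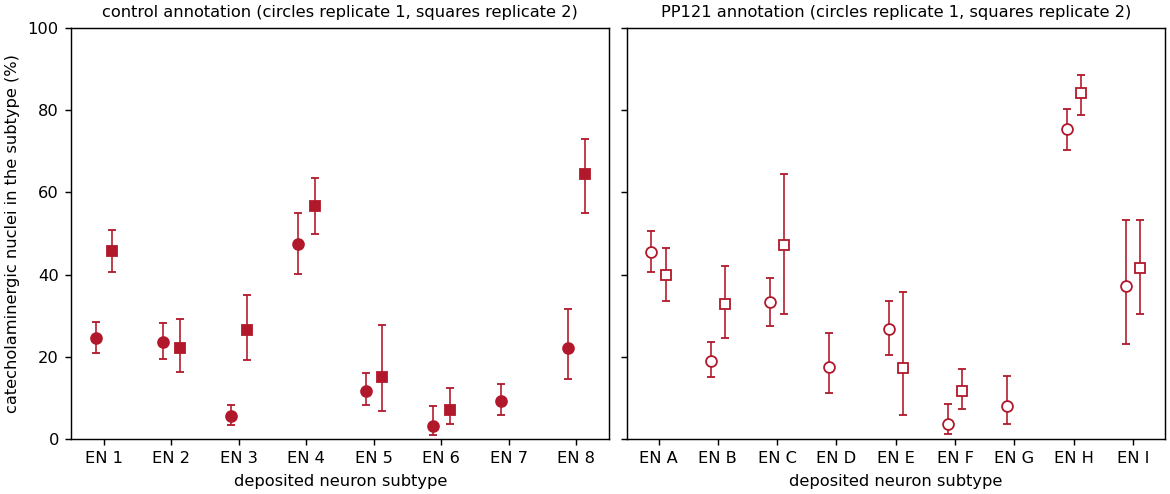
Share of nuclei with the catecholaminergic identity (%, y axis) in each annotated neuron subtype of at least 20 nuclei (x axis), for control (left) and PP121 samples (right), with circles for replicate 1, squares for replicate 2 and exact 95% binomial intervals. EN 4 in control and EN H in PP121 samples lie high in both replicates.

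LMX1B, a homeobox factor of serotonergic, midbrain dopaminergic and some spinal neurons, differed in level between subtypes. Its level in catecholaminergic nuclei was 94.5 and 105 CPM in EN 4, 76.7 and 113 CPM in EN 8 and 152 and 232 CPM in EN H, but 15.1 and 24.1 CPM in EN 1. A high level was not tied to a high share of the identity: EN F, where the identity was rare, held 222 and 124 CPM in its 5 and 21 catecholaminergic nuclei (10 and 29 UMIs), EN B held 69.9 and 59.2 CPM, and EN I, with 37.2% and 41.6% of its nuclei in the class, held 0 and 20.0 CPM (0 and 6 UMIs). Nuclei of EN 4, EN 8 and EN H without the identity held less LMX1B, with 6.20 and 17.5 CPM in EN 4, 27.3 and 100 CPM in EN 8 and 94.1 and 205 CPM in EN H. The gap between identities was thus wide in EN 4 and narrow in EN H.

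Across all genes, catecholaminergic and other neurons differed in 857 of 17193 genes tested (4.98%), 351 higher (2.04%) and 506 lower (2.94%) in catecholaminergic neurons. A gene was counted where edgeR's quasi-likelihood test with the sample as a block gave a Benjamini-Hochberg adjusted p under 0.05, which here describes the annotation. LMX1B, at chromosome 9, 126613928 to 126701032, was at 30.0, 55.5, 71.4 and 136 CPM against 4.09, 17.9, 10.2 and 27.3 CPM, higher in 4 of 4 samples with a log2 fold change of 2.36 ± 0.17. TAC1, which encodes substance P and neurokinin A and lies at chromosome 7, 97732086 to 97740472, was at 12.3, 24.1, 31.2 and 70.6 CPM against 2.21, 7.57, 5.13 and 10.5 CPM, with a log2 fold change of 2.38 ± 0.17. Its UMIs sat in few nuclei: the 3 richest catecholaminergic nuclei held 57.1%, 51.5%, 26.2% and 29.3% of them.

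SLC17A6, the vesicular glutamate transporter VGLUT2, at chromosome 11, 22338381 to 22379503, had a level in catecholaminergic neurons that varied less over samples than that of TAC1, while its fold over other neurons varied more, from 1.85 to 6.32, against 3.19 to 6.70 for TAC1. It was at 58.7, 71.9, 73.5 and 81.2 CPM in catecholaminergic neurons and at 9.29, 20.2, 27.1 and 43.9 CPM in the others, with a log2 fold change of 1.66 ± 0.20. The groups did not overlap.

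The other leading rises by size were the homeobox genes SHOX (log2 fold change 1.79 ± 0.24) and SHOX2 (1.66 ± 0.13), the long non-coding RNA CYTOR (1.45 ± 0.13), the neurite growth gene NRN1 (1.35 ± 0.13), the zinc-binding synaptic vesicle protein TMEM163 (1.30 ± 0.08), LURAP1L-AS1 (1.28 ± 0.19), the secretogranin SCG2 (1.15 ± 0.17) and EPB41L3 (1.12 ± 0.10), all higher in 4 of 4 samples. TLX3, a homeobox selector of glutamatergic over GABAergic fate in the spinal cord, is added after its values were seen. It lies at chromosome 5, 171309248 to 171312139, below the level of 10 CPM set for the genes named here, and was at 7.64, 11.7, 16.5 and 15.8 CPM against 0.909, 2.91, 1.78 and 2.02 CPM (log2 fold change 2.78 ± 0.24).

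The largest falls were in RIC3-DT (log2 fold change -1.96), PAUPAR (-1.93), the contactin CNTN5 (-1.63), NDNF (-1.62), the sarcoglycan SGCD (-1.57), PAX3 (-1.53), ARHGAP42 (-1.50), NPHS1 (-1.46), LMO1 (-1.45), the collagen COL4A5 (-1.37), ANTXR2 (-1.36) and SOX2-OT (-1.33). PAX3, a factor of neural crest progenitors, was at 72.8, 74.9, 65.9 and 66.6 CPM in catecholaminergic neurons, an even level, against 124, 212, 196 and 315 CPM in the others. The antisense and divergent transcripts among these names overlap or adjoin other genes, and the use of strand in counting is not given in the sources used here, so their values are uncertain.

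**Figure D4:**
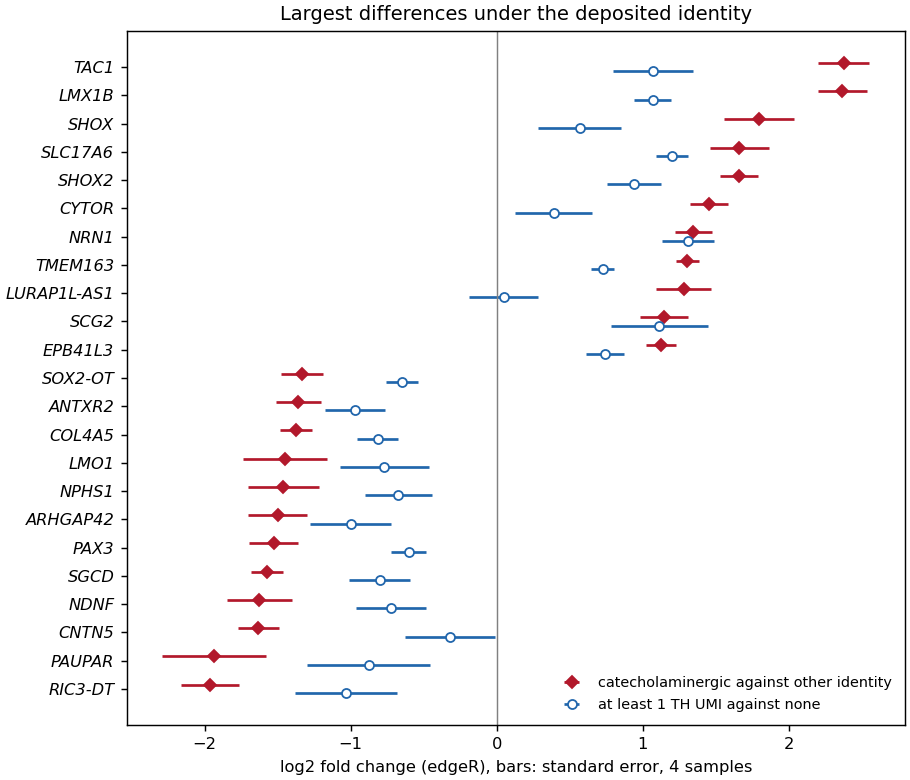
Log2 fold change (x axis) with its SE over 4 samples for 11 of the 12 genes that rose and the 12 that fell most under the deposited identity (red diamonds), with the values for neurons with at least 1 TH UMI against none (open blue circles) beside them. TAC1 and LMX1B lead the rises under the identity at 2.38 and 2.36, whereas for the TH UMI split both lie at 1.07 and LURAP1L-AS1 lies at 0.05 ± 0.23.

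Genes of the dense-core vesicle, which stores amines and peptides, were higher in 3 of 11 members tested and lower in 0: SCG2, CPE (log2 fold change 0.51) and SCG5 (0.56), with a median of 0.33 over the 11 against 0.00 over all genes, of which 2.04% were higher. None of the 3 passed with subtypes balanced as described below (SCG2 0.67, adjusted p = 0.0674, CPE 0.25, adjusted p = 0.257, and SCG5 0.38, adjusted p = 0.228, in edgeR). In the split by TH UMIs 0 of the 11 were higher, beside 0.202% of all genes, so this count does not tell them from the background. Among transmitter genes outside the catecholamine pathway, 2 of 11 were higher, TAC1 and SLC17A6, and 3 were lower, GAD2 (-0.85), CHAT (-1.18) and NOS1 (-2.19). These encode enzymes of GABA, acetylcholine and nitric oxide synthesis. GAD1, the other enzyme of GABA synthesis, was not past the threshold (-0.26, adjusted p = 0.420 in edgeR, lower in 3 of 4 samples). NOS1, at chromosome 12, 117208142 to 117361626, was at 2.06, 2.24, 1.90 and 1.43 CPM against 4.81, 6.99, 9.63 and 15.01 CPM, and CHAT at 10.6, 7.47, 9.50 and 4.88 CPM against 21.4, 21.8, 22.5 and 7.39 CPM. NOS1 did not overlap between the groups, whereas CHAT did.

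Factors of midbrain dopaminergic neurons were higher in 1 of 3 members tested (LMX1B), with a median of -0.05. Enteric neuron markers were higher in 3 of 7: UCHL1 (0.53), STMN2 (0.34) and SNAP25 (0.32). Of 6 growth factor receptors NTRK3, the receptor of neurotrophin 3, was higher (0.86 ± 0.10, in 4 of 4 samples). GFRA1, the GDNF coreceptor, was lower (-1.01 ± 0.22), but in 3 of 4 samples only. It was at 17.0 against 15.9 CPM in control replicate 1 and at 28.1 against 99.0 CPM in PP121 replicate 2. Lower too were 2 of 3 cycling markers, ASPM (-0.76) and TOP2A (-0.81), SOX2 (-0.95) among 5 markers of glia and progenitors, and HOXB3 (-0.50) among 6 HOX genes. None of the 4 amine receptors, 3 chromaffin and sympathetic markers, 4 mesenchymal markers or 1 epithelial marker tested passed, with 4.98% of all genes as the background.

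**Figure D5:**
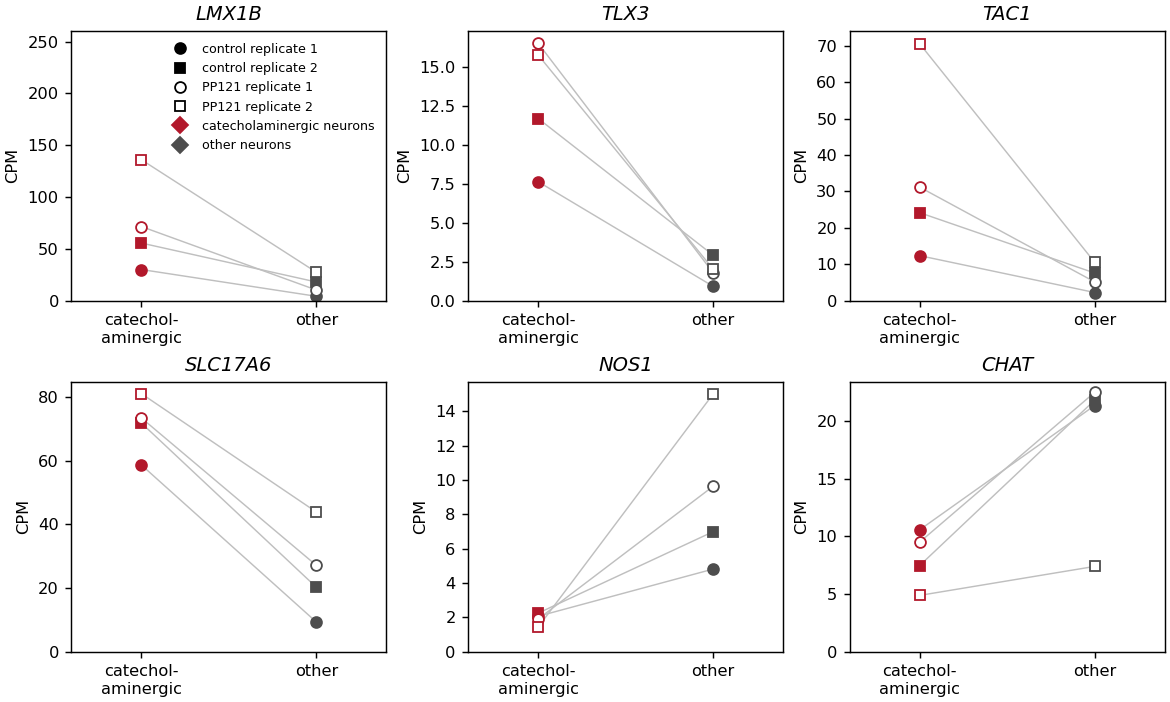
Levels (CPM, y axes from 0) of 6 genes in the catecholaminergic and other neurons of each sample, joined by a line, with circles for replicate 1, squares for replicate 2 and open symbols for PP121. LMX1B, TLX3, TAC1 and SLC17A6 fall from left to right in every sample, CHAT rises in every sample, and NOS1 rises from 1.43 to 2.24 CPM up to 4.81 to 15.01 CPM.

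Because the annotation rests on expression, the neurons were also split by TH alone, with no use of imputed values: 459 neurons with at least 1 TH UMI against 5862 without, TH itself left out. In edgeR 74 of 16872 genes passed an adjusted p of 0.05 (0.439%), 34 higher (0.202%) and 40 lower (0.237%) in neurons with a TH UMI, and 71 of the 74 moved the same way in all 4 samples. SLC17A6 was at 37.6, 75.8, 100 and 113 CPM with a TH UMI and 16.5, 35.0, 38.6 and 53.4 CPM without, a log2 fold change of 1.197 ± 0.11 (adjusted p = 0.000184). LMX1B was at 15.3, 55.1, 73.6 and 132 CPM against 8.18, 29.0, 28.2 and 67.6 CPM, a log2 fold change of 1.07 ± 0.13 (adjusted p = 0.00271). Both were higher in 4 of 4 samples, and the groups overlapped between samples but not within any. TMEM163 (0.73 ± 0.08, adjusted p = 0.000901), NRN1 (1.31 ± 0.17, adjusted p = 0.00541), TLX3 (1.79 ± 0.30, adjusted p = 0.0237), UCHL1 (0.61, adjusted p = 0.0348) and NTRK3 (0.58, adjusted p = 0.0274) rose as well.

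NOS1 fell by 3.38 ± 0.62 on the log2 scale (adjusted p = 0.0311). It gave 1, 2, 0 and 0 UMIs in neurons with a TH UMI and 80, 55, 102 and 72 in those without. PAX3 (-0.60), COL4A5 (-0.82) and SOX2-OT (-0.65) fell too. TAC1 (1.07, adjusted p = 0.127) and SCG2 (1.11, adjusted p = 0.217) were not past the threshold, and GAD2 (-0.36, adjusted p = 0.334) and CHAT (-0.25, adjusted p = 0.773) were not either. SLC18A2 was at 11.5, 9.47, 9.09 and 6.61 CPM with a TH UMI against 13.3, 13.5, 13.3 and 9.37 CPM without (log2 fold change -0.42 ± 0.22, adjusted p = 0.6005).

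Neurons with a TH UMI were deeper, with medians of 9004 to 10825 UMIs against 6840 to 7653. Set against 3 neurons of the same sample nearest in depth, the split gave 99 of 14317 genes, and 53 of the 74 genes passed again, LMX1B with a log2 fold change of 1.23 ± 0.14 and SLC17A6 with 1.07 ± 0.12. The number of calls varied with the samples used, from 5, 4 of them higher, without PP121 replicate 1 and 15 without control replicate 2 to 128 without control replicate 1. LMX1B, SLC17A6, TMEM163, LRRC4C and the clone-named AC104009.1 passed in the fit of all samples, in each of the 4 fits without a sample, with depth matched and in DESeq2. Thinning every nucleus to 2000 UMIs before the split left 20 genes past the threshold, all lower, with LMX1B at 0.10 ± 0.56 and the median of all genes at -0.17. The side with a TH UMI then held only 49, 29, 31 and 18 nuclei and 98000, 58000, 62000 and 36000 UMIs. At such totals this split cannot decide on rises of genes at the level of LMX1B.

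LMX1B did not separate catecholaminergic nuclei with a TH UMI from those without. It was at 26.5, 57.2, 98.3 and 133 CPM in the 313 nuclei with one and at 30.9, 55.1, 66.1 and 137 CPM in the 1628 without, higher in 2 of 4 samples. With all nuclei that held a TH UMI left out, the identity still differed from other neurons in 915 of 16782 genes (5.45%), 363 higher (2.16%) and 552 lower (3.29%), LMX1B by 2.49 and SLC17A6 by 1.66 on the log2 scale. Among other neurons, the 146 with a TH UMI held LMX1B at 5.87, 49.3, 8.97 and 131 CPM, against 3.99, 16.4, 10.2 and 20.7 CPM in those without. In those other neurons alone the TH split gave 17 calls, with NRN1 (1.77, adjusted p = 0.0319) and TMEM163 (1.10, adjusted p = 0.030) among them and LMX1B not past the threshold (1.52 ± 0.39, adjusted p = 0.193).

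Fewer of the named genes were past the threshold once subtypes were balanced. When equal numbers of both identities were drawn within each subtype of a sample, 1565 nuclei a side, 235 of 16021 genes were past the threshold (1.47%), 68 higher (0.424%) and 167 lower (1.04%). TLX3 (2.15), LMX1B (1.39), TAC1 (1.30) and CYTOR (1.01) remained among them, as did NOS1 (-2.50) and CHAT (-0.87). SHOX (-0.08), SHOX2 (0.21), NRN1 (0.60), SLC17A6 (0.65) and GAD2 (-0.27, adjusted p = 0.323 in edgeR) did not. Catecholaminergic nuclei with no other transmitter identity, 497 against the 590 neurons with none at all, differed in 682 of 10774 genes (6.33%), 407 higher (3.78%) and 275 lower (2.55%), LMX1B by 2.71, SLC17A6 by 2.78 and TAC1 by 1.68.

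Serotonergic neurons, the other amine class of the annotation, were set beside the catecholaminergic neurons with the 374 nuclei that carried both identities left out, leaving 1567 against 1366. As a description, 1813 of 15638 genes were past the threshold (11.6%), 765 higher (4.89%) and 1048 lower (6.70%) in catecholaminergic neurons. The rule behind the serotonergic identity is not known here and may use TPH1, the first enzyme of serotonin synthesis. All catecholaminergic neurons, those with both identities included, held 5, 14, 25 and 7 TPH1 UMIs. With the shared nuclei left out, TPH1 gave 0, 2, 4 and 1 UMIs in catecholaminergic and 39, 17, 33 and 18 in serotonergic neurons. SLC6A4, the serotonin transporter (-0.94), and GAD1 (-0.91) were lower as well, and QDPR, which regenerates the hydroxylase cofactor, was higher (0.90). LMX1B, which serotonergic neurons of the brain need, was higher in the catecholaminergic neurons by 2.73 on the log2 scale, in company with SHOX2 (2.85), SHOX (2.74), TAC1 (2.64) and SLC17A6 (2.23). TPH1, below 10 CPM, fell by 4.06 on the log2 scale, and the falls among genes of at least 10 CPM that moved alike in all samples were led by SGCD (-2.79), SPHKAP (-2.61), LMOD1 (-2.26), EDNRB-AS1 (-2.24), LAMB4 (-2.24) and RIC3-DT (-2.22).

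Between PP121 and control samples, the catecholaminergic neurons held 0 of 16430 genes past an adjusted p of 0.05 in edgeR (0%), with 2249 at an unadjusted p under 0.05 and 64 past the adjusted threshold in DESeq2. Blocking on the replicate number brought this to 381 genes (2.32%), of which 269 were higher (1.64%) and 112 lower (0.682%) in PP121 samples. Leading those that then rose were the homeobox gene SHOX (log2 fold change 2.63), the kainate receptor subunit GRIK1 (2.19), TMEFF2 (2.17), NREP-AS1 (2.17) and the heparan sulfate sulfotransferase HS3ST5 (1.93), and leading those that fell were the natriuretic peptide receptor NPR3 (-1.61), the kinase PIM3 (-1.56), MAB21L1 (-1.49), STXBP5-AS1 (-1.46) and HOOK1 (-1.42). The 3 genes with the smallest p were DGKB, a diacylglycerol kinase, at 25.8 and 35.6 CPM in control and 87.2 and 98.1 CPM in PP121 samples (log2 fold change 1.61 ± 0.21), the potassium channel KCNH5 at 26.7 and 31.1 against 70.1 and 72.6 CPM (1.32 ± 0.18), and the protein kinase PRKCQ at 65.8 and 74.4 against 169 and 143 CPM (1.17 ± 0.16). Each had an adjusted p of 0.143, and of 0.00272, 0.00667 and 0.00772 with the block. Samples of the 2 groups did not overlap in these genes, nor in 46.3% of all genes, of which 21.4% lay above and 24.9% below in PP121 samples.

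The leading genes of the identity did not pass the test for PP121. TH was at 26.7 and 22.7 CPM in control and 21.5 and 21.5 CPM in PP121 samples (log2 fold change -0.17 ± 0.21, adjusted p = 0.763). LMX1B (1.29 ± 0.35, adjusted p = 0.199) and TAC1 (1.48, adjusted p = 0.200) were higher in both PP121 samples than in both control samples, and passed with the block (adjusted p = 0.00543 and 0.00784). SLC17A6 was not past the threshold (0.27, adjusted p = 0.544). In counts summed over the class, a different make-up of the class and a change within its nuclei cannot be told apart.

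The difference between PP121 and control samples was also compared between catecholaminergic and other neurons. By the interaction term in edgeR, 4 of 18257 genes passed (0.0219%), all with a lower value in catecholaminergic neurons: AP003464.1, FLRT2, MECOM and PCDH9. Under the block on replicate number 264 genes passed (1.45%), 124 higher (0.679%) and 140 lower (0.767%). LMX1B (0.37 ± 0.32, adjusted p = 0.935) and TH (0.03 ± 0.33, adjusted p = 0.995) did not differ past the threshold in their response, and SLC17A6 did so only with the block (-1.11, adjusted p = 0.352, against -1.13, adjusted p = 3.6e-06).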

How the data were processed

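Single-nucleus libraries of hashtag-labelled nuclei were made by the authors. Their methods name kallisto and bustools for UMI counting, whereas the submitters' processing notes list Cell Ranger, Seurat 4.0.4 and GRCh38. The deposited values are raw UMI counts per gene (36601 features, named by symbol) and nucleus, whose sums equalled the listed totals, with an annotation table. The percentages of mitochondrial and ribosomal UMIs per nucleus were computed by the authors and are not reported here. Library totals ran from 29305639 to 49428774 UMIs. Nuclei that the authors removed (25306 deposited, 14812 annotated) were left out. No doublet caller was run here, since the authors' hashtag demultiplexing and filters came before the annotation. A deposited sample-name column disagreed with the labels in the control samples, and the labels were used.

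Counts were summed per sample and group and fitted in R 4.3.3 with edgeR 4.0.16 (TMM, filterByExpr, quasi-likelihood F test, adjusted p under 0.05), with the sample as a block between identities. SEs are the log2 fold change divided by the root of F. DESeq2 1.42.0 was an alternative. On simulated counts the scripts were tested first. The labels call the number a differentiation replicate, and in the annotation samples with the same number share a day, by which they were paired: deviations from group means correlated at 0.292 over 11232 genes in catecholaminergic and 0.585 over 11276 in other neurons. Genes named are the 12 largest log2 fold changes each way among called genes of at least 10 CPM that moved alike in all samples (5 each way with the block and the 3 smallest p for PP121), without clone and LINC names, plus called members of gene lists. Of these, 1 gene is not reported here and was left out of the lists. Members and lists were chosen with earlier results of these data known. Positions are RefSeq's for GRCh38.p14.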

Additional observations from a re-analysis of the deposited data

Results flagged for a closer look

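In 4 genes the difference between PP121 and control samples differed between catecholaminergic and other neurons by the interaction term of edgeR over 4 samples. AP003464.1, a clone-named transcript, went from a mean of 122 CPM in control to 46.7 CPM in PP121 samples in catecholaminergic neurons and from 18.3 to 37.7 CPM in other neurons, a difference of -2.46 ± 0.20 on the log2 scale (adjusted p = 0.000406). FLRT2, a fibronectin leucine-rich membrane protein, went from 39.8 to 22.0 CPM and from 11.9 to 24.8 CPM (-2.001 ± 0.27, adjusted p = 0.0396). MECOM, a zinc-finger factor, went from 109 to 87.7 CPM and from 61.8 to 162 CPM (-1.71 ± 0.22, adjusted p = 0.0361). PCDH9, a protocadherin, went from 1333 to 830 CPM and from 1201 to 1404 CPM (-0.97 ± 0.13, adjusted p = 0.0398). In each, the mean of the other neurons was higher and that of the catecholaminergic neurons lower in PP121 samples. Single replicates were less even. In catecholaminergic neurons FLRT2 went from 30.8 to 30.0 CPM in replicate 1 and from 48.8 to 14.1 CPM in replicate 2. MECOM went from 96.0 to 57.2 CPM in replicate 1 and from 121 to 118 CPM in replicate 2. FLRT2, MECOM and PCDH9 also passed in DESeq2. None of them passed in edgeR when at least 10 counts were required in every sum.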

How the results depend on the processing

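The 857 genes that differed by identity became 516 in DESeq2, 1668 with no filter on low counts, 542 after thinning to 2000 UMIs, 503 in G1 nuclei, 235 with equal numbers within subtypes and 17 with no block on sample, and 253 to 1162 when 1 sample was left out (253 without control replicate 2, 281 without PP121 replicate 1, 1162 without control replicate 1). The TH UMI definition gave 74 genes, 17 among neurons with the identity Other and 20 after thinning. Its 74 genes ran from 5 (without PP121 replicate 1) to 128 (without control replicate 1) when 1 sample was left out.

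For PP121 in catecholaminergic neurons, 0 genes became 64 in DESeq2, 676 with no filter and 381 with the replicate block, and 20 to 1340 without 1 sample (20 without control replicate 2, 1340 without PP121 replicate 1). For the interaction, 4 genes became 13 in DESeq2, 193 with no filter, 1 with at least 10 counts in every sum and 264 with the replicate block, and 2 to 101 without 1 sample (101 without control replicate 2). The comparison with serotonergic neurons gave 1074 genes in DESeq2 and 406 to 2136 without 1 sample. A fit without 1 of 2 samples of a group assumes that the remaining one varies like the others. Tests of shares between treatments cannot reach the threshold with 2 samples a group, with or without the replicate block.

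Reversed in sign against the identity were, after thinning and splitting by TH UMI, ARHGAP42 (0.60), ASPM (0.98), CPE (-0.0891), EPB41L3 (-0.11), HOXB3 (0.13), SCG5 (-0.0505), SHOX2 (-0.88), SNAP25 (-0.33) and STMN2 (-0.11), and, by TH UMI among neurons with the identity Other, CHAT (0.0575), CNTN5 (0.59), CYTOR (-0.28), HOXB3 (0.0910) and TOP2A (0.0198). SHOX was at -0.0789 with equal numbers within subtypes. The glutamatergic difference was -1.15 points without control replicate 1 and 7.21 without PP121 replicate 2. The difference between PP121 and control in neurons with a TH UMI was 0.0173 points at 1000 UMIs and 0.146 without thinning, and for DBH 0.0380 at 4000 UMIs, 0.00622 without thinning and -0.109 to 0.0513 without 1 sample. The cause of these changes was not tested, and the thinned split held only 49, 29, 31 and 18 nuclei with a TH UMI.

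Depth limits the shares. A UMI of TH was found in 2.63%, 8.54% and 16.1% of catecholaminergic nuclei at 1000 UMIs, 4000 UMIs and without thinning, and of SLC18A2 in 1.08%, 4.63% and 8.60%. Without thinning DBH reached 0.361% and DDC 1.44%. Among all enteric neurons the shares by sample were 0.217%, 0.32%, 0.345% and 0.205% for DBH. For DDC they were 1.17%, 0.96%, 0.936% and 0.717%.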
